A study of Chenopodium quinoa with 9 samples.

Results

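Genes with transcripts in the stem and root of quinoa (Chenopodium quinoa) and almost none in the leaf numbered 160 of the 54238 in the deposited tables (0.295%). Each had a mean of at least 5 FPKM over the 3 stem libraries, a mean of at least 5 FPKM over the 3 root libraries, and under 0.5 FPKM in every leaf library. FPKM is the number of sequenced fragments of a gene scaled by gene length and library size. The genes were chosen by these deposited values, so the low leaf level and the presence in both other organs define the genes and are not results. No more than 200 genes passed, so none was left out.

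Stem and root are both axes through which water, minerals and sugars move, and both are built around xylem, the water-conducting tissue, and phloem, the sugar-conducting tissue. In many plants both also form lignified and suberised layers, store reserves and do little photosynthesis, while the leaf blade is mostly photosynthetic tissue with fine veins. Genes used in the axis and not in the blade are therefore looked for in the walls, barriers, transport and defence of such tissue. None of the 160 identifiers could be placed in these functions here. RefSeq's table of 58882 quinoa genes (assembly ASM168347v1) held 0 of the study's identifiers, the deposited tables give no names, and so no function is stated for any of the genes. For the same reason the labelled organs could not be checked against marker genes.

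The plants were field-grown quinoa of a yellow bitter type, sown in early spring and collected in late summer, per the labels' protocols. Stem, root and leaf were each represented by 3 libraries, and each library came from a pool of 10 of the 30 plants, with all 3 organs taken from the same pools. No group received a treatment, and the labels do not state the growth stage or the part of the stem or root collected. Total counts were 18719390 to 24846346 in stem, 16112021 to 18253046 in root and 17554727 to 22035718 in leaf. Spread between libraries here means spread between such pools, and so do the p-values. A lower level in a bulk organ can come from fewer cells of a type or from less RNA per cell, and these cannot be told apart.

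The stem level of these genes was carried unevenly by the stem libraries. Their summed FPKM in stem replicates 1 to 3 was 31090, 2259 and 1875. In root replicates 1 to 3 it was 32504, 21737 and 53078, and in leaf replicates 1 to 3 it was 18.9, 13.4 and 14.9. Stem replicate 1 alone thus lay in the range of the root libraries. A single gene, AUR62029016, held 29.8% of the mean stem sum and 62.1% of the mean root sum. Without that gene the sums were 20840, 2163 and 1723 in the stem libraries, against 11486, 10572 and 18618 in the root libraries, so the gap between stem replicate 1 and the other stem libraries did not rest on it.

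The median over the 160 genes was 27.2, 6.27 and 1.79 FPKM in stem replicates 1 to 3, against 16.2, 16.9 and 20.6 FPKM in root replicates 1 to 3. The stem libraries held 146, 88 and 62 genes with at least 5 FPKM, against 149, 137 and 147 such genes in the root libraries. In stem replicate 3, 53 of the genes were under 0.5 FPKM, the level that defined absence in leaf, as were 13 in stem replicate 2 and 6 in stem replicate 1. In root this was so for 2 genes, both in replicate 2. The name "root and stem genes absent from leaf" therefore holds for the organ means, while 56 of the 160 were also under 0.5 FPKM in at least 1 stem library.

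**Figure D1:**
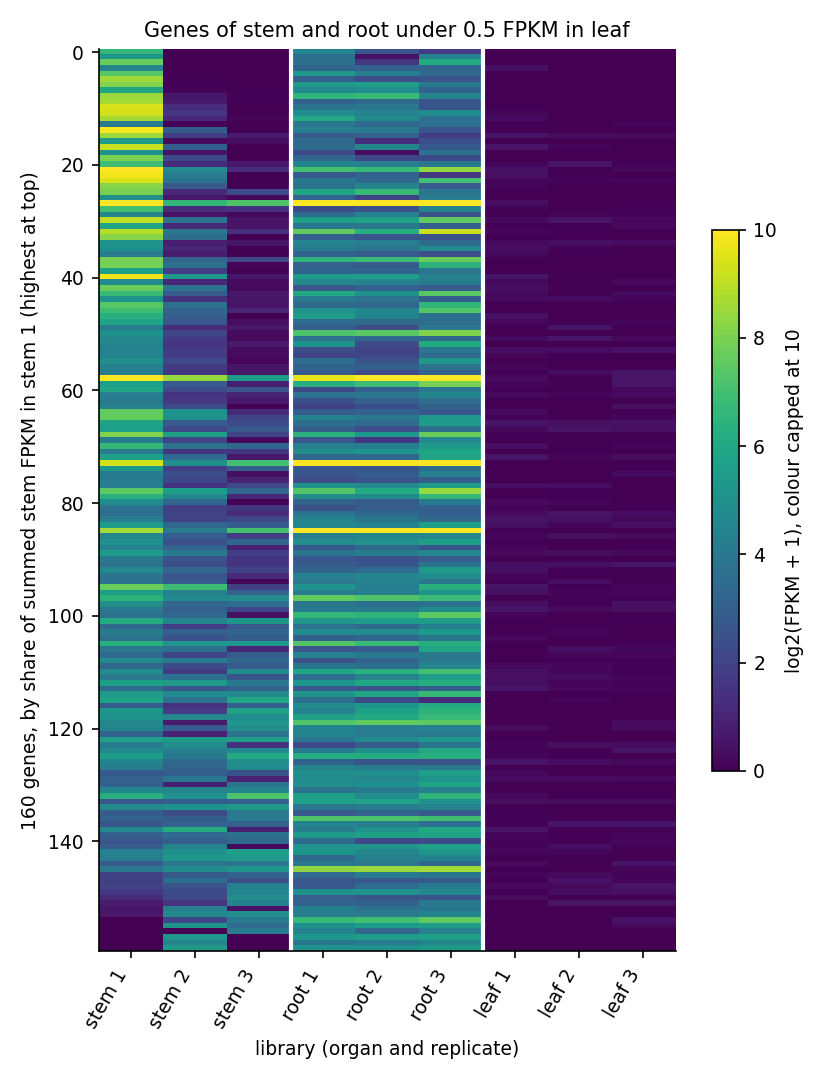
Levels of the 160 genes (rows) in the 9 libraries (columns), as log2(FPKM + 1) with the colour capped at 10, ordered by the share of the summed stem FPKM that lay in stem replicate 1. The upper rows are bright in stem 1 and dark in stem 2 and stem 3, the root columns show signal in nearly every row, and the leaf columns are dark because the genes were chosen so.

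The highest stem value was in replicate 1 for 116 of the 160 genes (72.5%), in replicate 3 for 29 and in replicate 2 for 15. Among the 16502 other genes with means of at least 5 FPKM in both stem and root, replicate 1 was highest for 50.6%. In 51 of the 160 (31.9%), stem replicate 1 held at least 90% of the summed stem FPKM, and in 108 it held at least 50%. The same 90% share was met by 0.382% of those 16502 genes. A mean of 3 libraries reaches 5 FPKM when 1 of them is at 15, so the rule admits genes carried by a single library. These shares are descriptions, with no test.

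The high values of stem replicate 1 were often above root as well. Stem replicate 1 exceeded all 3 root libraries for 80 genes, against 16 genes for stem replicate 2 and 16 for stem replicate 3. For 75 of the 160 genes, stem replicate 1 was the highest of all 9 libraries, and for 51 it was root replicate 3. The shares of other genes with these orders were not taken, so the counts describe the 160 genes alone. Stem replicate 1 was also the highest stem library for 50.6% of the 16502 other genes. AUR62028946, chosen after its values were seen, had 923, 6.73 and 0 FPKM in stem replicates 1 to 3, against 18.5, 16.1 and 5.27 FPKM in root replicates 1 to 3. AUR62028497, chosen in the same way, had 912, 17.5 and 0.0485 FPKM in the stem libraries and 5.79, 7.91 and 2.02 FPKM in the root libraries. Both genes lay far above root in stem replicate 1 and within or below the root range in stem replicate 3. Why that library differed was not tested.

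**Figure D2:**
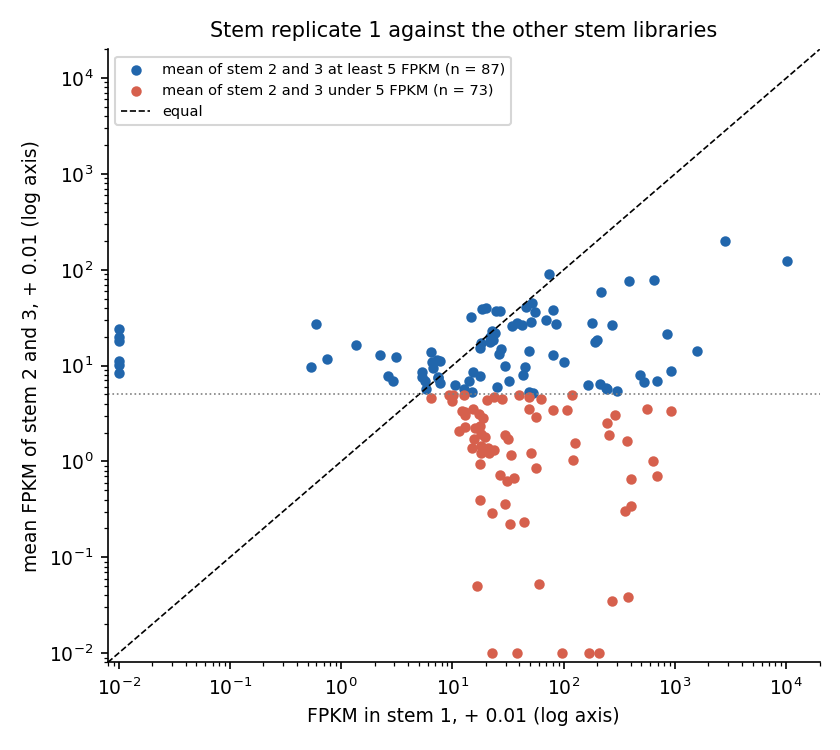
Level of each of the 160 genes in stem replicate 1 (x axis) against the mean of stem replicates 2 and 3 (y axis), in FPKM + 0.01 on log axes, with the dashed line at equality and the dotted line at 5 FPKM. Most points lie right of the dashed line, and 73 genes (red) fall under the dotted line, against 87 (blue) on or above it.

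Read by how many stem libraries reached 5 FPKM, the 160 genes fell into 3 classes, formed after the values were seen and given with no test. All 3 stem libraries reached 5 FPKM for 38 genes, exactly 2 of them for 60, and exactly 1 for 62. Of the 60, 42 had replicates 1 and 2 at that level, 15 had replicates 1 and 3, and 3 had replicates 2 and 3. Of the 62, 51 had replicate 1 alone, 6 had replicate 3 alone and 5 had replicate 2 alone.

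The 51 genes with at least 5 FPKM in stem replicate 1 alone had medians of 29.7, 1.45 and 0.213 FPKM in stem replicates 1 to 3, against 11.0, 7.81 and 12.3 FPKM in root replicates 1 to 3. Stem replicate 1 lay above every root library for 40 of them. Root replicate 3 was the highest root library for 26 and the lowest for 19, so the root libraries had no common order among these genes. Genes whose identifier does not start with AUR62 (non-AUR62 genes) made up 10 of the 51 and 20 of all 160. One of them, chosen after its values were seen, had 376, 0.0575 and 0 FPKM in stem, against 7.24, 4.19 and 4.93 FPKM in root and 0 counts in leaf.

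Stem replicate 2 alone carried 5 genes, of which 3, singled out after their values were seen, were non-AUR62 genes with no count in the other stem libraries. The most abundant of the 3 had 0, 39.8 and 0 FPKM in stem replicates 1 to 3, against 32.5, 33.1 and 42.5 FPKM in root replicates 1 to 3. The next had 0, 35.8 and 0 FPKM in stem, against 37.6, 47.0 and 50.3 FPKM in root. The last had 0, 22.5 and 0 FPKM in stem, against 13.4, 16.7 and 23.1 FPKM in root. All 3 had 0 counts in leaf, and the stem library with counts lay within the root range for the first and the last and below it for the other. AUR62035111, also chosen after its values were seen, had the same form in stem replicate 3, with 0, 0 and 16.6 FPKM in stem, against 21.7, 9.42 and 19.4 FPKM in root.

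At least 5 FPKM in each of the 6 stem and root libraries was found for 33 genes. Their median CV (SD over mean) was 0.509 in stem and 0.280 in root, against 1.27 in stem and 0.392 in root over all 160. Only 9 of the 33 had a highest stem value under 2-fold above the lowest. Among the 33 were 2 pairs of genes with consecutive identifiers, chosen after their values were seen. AUR62034981 had 22.8, 23.4 and 22.9 FPKM in stem replicates 1 to 3, against 12.3, 15.7 and 19.3 FPKM in root. AUR62034982 had 26.7, 34.6 and 40.4 FPKM in stem, against 14.3, 17.7 and 21.3 FPKM in root. In both genes every stem library lay above every root library.

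The other pair was AUR62039334 and AUR62039335. AUR62039334 had 18.4, 36.6 and 41.4 FPKM in stem, against 9.21, 19.8 and 19.9 FPKM in root. AUR62039335 had 52.3, 40.8 and 48.9 FPKM in stem, against 14.3, 26.3 and 38.8 FPKM in root. The stem and root libraries of AUR62039334 overlapped and those of AUR62039335 did not. All 4 genes had 0 counts in every leaf library, and none passed the test of stem against root (edgeR, adjusted p from 0.0528 for AUR62034982 to 0.154 for AUR62039334). Without stem replicate 1, AUR62034982 alone of the 4 passed (log2 fold change 1.11, adjusted p = 0.0264, edgeR). Replicate 1 was the lowest stem library of AUR62034982, so leaving it out raised the stem mean.

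Leaf signal was low but not nil. No count in any leaf library was recorded for 52 of the 160 genes, 1 to 3 counts over the 3 libraries for 41, and more for 67. The median gene had 2 leaf counts in all, the highest had 77, and 43 genes had a count in every leaf library. The limit of 0.5 FPKM stood for 1.47 to 37.4 counts in a leaf library, with a median of 7.17, depending on gene length and library size. For the 52 genes without a count, 3 counts per library, taken as the upper limit that a count of 0 allows, stood for 0.0806 to 1.02 FPKM (median 0.219), a bound for counting error only. Absence from leaf is thus a statement about this depth.

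Just inside and just outside the limits the values lay close together. The highest leaf value of any of the 160 genes was 0.499 FPKM, and the nearest gene left out for its leaf level had 0.503 FPKM. The lowest stem mean inside was 5.16 FPKM and the nearest outside 4.99 FPKM, and for the root mean these were 5.16 and 4.75 FPKM. With a leaf limit of 1 FPKM, 237 genes passed, and with 0.1 FPKM 71.

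The number of genes that met the limits depended on stem replicate 1 more than on any other stem or root library. Without it, 101 genes passed, of which 87 were among the 160, while 73 of the 160 (all but those 87) had a stem mean under 5 FPKM. Without stem replicate 2 or 3 that number was 7 and 10, and without root replicate 1, 2 or 3 the root mean of 10, 2 and 7 genes was under 5 FPKM. The median stem mean of the 160 was 17.0 FPKM over all 3 stem libraries and 5.75 FPKM without stem replicate 1.

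Stem was then compared with root gene by gene, a contrast that the rule touched by asking for at least 5 FPKM in both means, but whose direction it did not fix. All 160 genes passed the filter on low counts. In a fit of all 36685 genes tested, 2 of the 160 (1.25%) were higher in stem and 13 (8.12%) lower (edgeR quasi-likelihood F-test, Benjamini-Hochberg adjusted p below 0.05 over all genes tested). Among all genes tested, 12.6% were higher and 9.27% lower in stem, so the share of these genes that was lower in stem was near that of all genes. The other 145 were not called, at fitted log2 fold changes (stem over root) of -4.05 to 5.90. The median standard error of the log2 fold change was 1.07 for the 160 genes and 0.384 for all genes tested. Fold changes were thus less precise for these genes at the median, and a gene not called may still differ between the organs.

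Most genes overlapped between the organs. All 3 stem libraries lay below all 3 root libraries for 34 of the 160 genes (21.2%) and above them for 5 (3.12%), while over all genes tested these shares were 22.0% and 20.0%. The remaining 121 genes had overlapping libraries. The median of the difference in log2(CPM + 1), where CPM is counts scaled to a common library size with TMM factors, stem minus root, was -0.96 over the 160 genes, with quartiles at -1.96 and -0.10, and 0.01 over all genes tested. Taken library by library against the root mean, it was 0.79, -1.34 and -2.38 for stem replicates 1 to 3. Over all genes tested the same medians were 0, 0 and -0.02. Without stem replicate 1 the median over the 160 genes was -1.87. The rule admits genes through a single high stem library, so these gaps between the stem libraries follow in part from it. No such limit applied to all genes tested. Averaging log2 values also gives low libraries more weight than averaging levels does. The edgeR log2 fold change, close to a ratio of organ means, had a median of -0.165 over the 160 genes, with 70 above 0 and 90 below.

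Both genes that rose in stem were at moderate stem levels and near the root limit, with root means of 5.41 FPKM (AUR62014764) and 5.87 FPKM (AUR62012937). Without root replicate 1, the highest root library of both, each root mean was under 5 FPKM. AUR62014764 had 55.2, 12.5 and 60.7 FPKM in stem replicates 1 to 3, against 11.0, 3.90 and 1.35 FPKM in root replicates 1 to 3. All stem values lay above all root values, with a log2 fold change of 3.01 (SE 0.86, adjusted p = 0.0382, edgeR). The call was lost with the replicate number as a block (adjusted p = 0.0633), in a fit of stem and root alone (0.074) and when any of 7 libraries was left out (adjusted p of 0.0521 with stem replicate 1 left out and up to 0.139, with root replicate 2 left out), and was kept without root replicate 1 or stem replicate 2. AUR62012937 had 21.9, 9.12 and 30.7 FPKM in stem, against 7.66, 5.05 and 4.90 FPKM in root, again without overlap. Its log2 fold change was 1.83 (SE 0.44, adjusted p = 0.0198, edgeR), and 1.80 without stem replicate 1 (adjusted p = 0.0286). In leaf it had 0.459, 0.309 and 0.202 FPKM, close to the limit, and without root replicate 2 or 3 its call was lost (adjusted p = 0.0826 and 0.0713).

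The 13 genes that fell in stem ranged from -4.35 to -1.36 in log2 fold change, with a median of -3.08, and 3 of them were non-AUR62 genes. Their root means were 31.2 to 3708 FPKM and their stem means 5.16 to 181 FPKM. The largest fall was in AUR62037366, at 388, 17.7 and 137 FPKM in stem replicates 1 to 3, against 3621, 2966 and 4538 FPKM in root replicates 1 to 3, with 0 counts in leaf. All stem values lay below all root values (log2 fold change -4.35, SE 1.08, adjusted p = 0.0331, edgeR). AUR62027680 had 0, 3.34 and 17.0 FPKM in stem, against 98.9, 126 and 186 FPKM in root (log2 fold change -4.28, SE 1.12, adjusted p = 0.0287, edgeR). It was 1 of the 6 genes carried by stem replicate 3 alone. For both genes the call was lost without any 1 of the root libraries, at adjusted p from 0.0724 to 0.0871, for AUR62037366 also without stem replicate 3 (0.0756), and for AUR62027680 also without stem replicate 2 (0.0783) or leaf replicate 3 (0.0594) and in a fit of stem and root alone (0.0683).

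**Figure D3:**
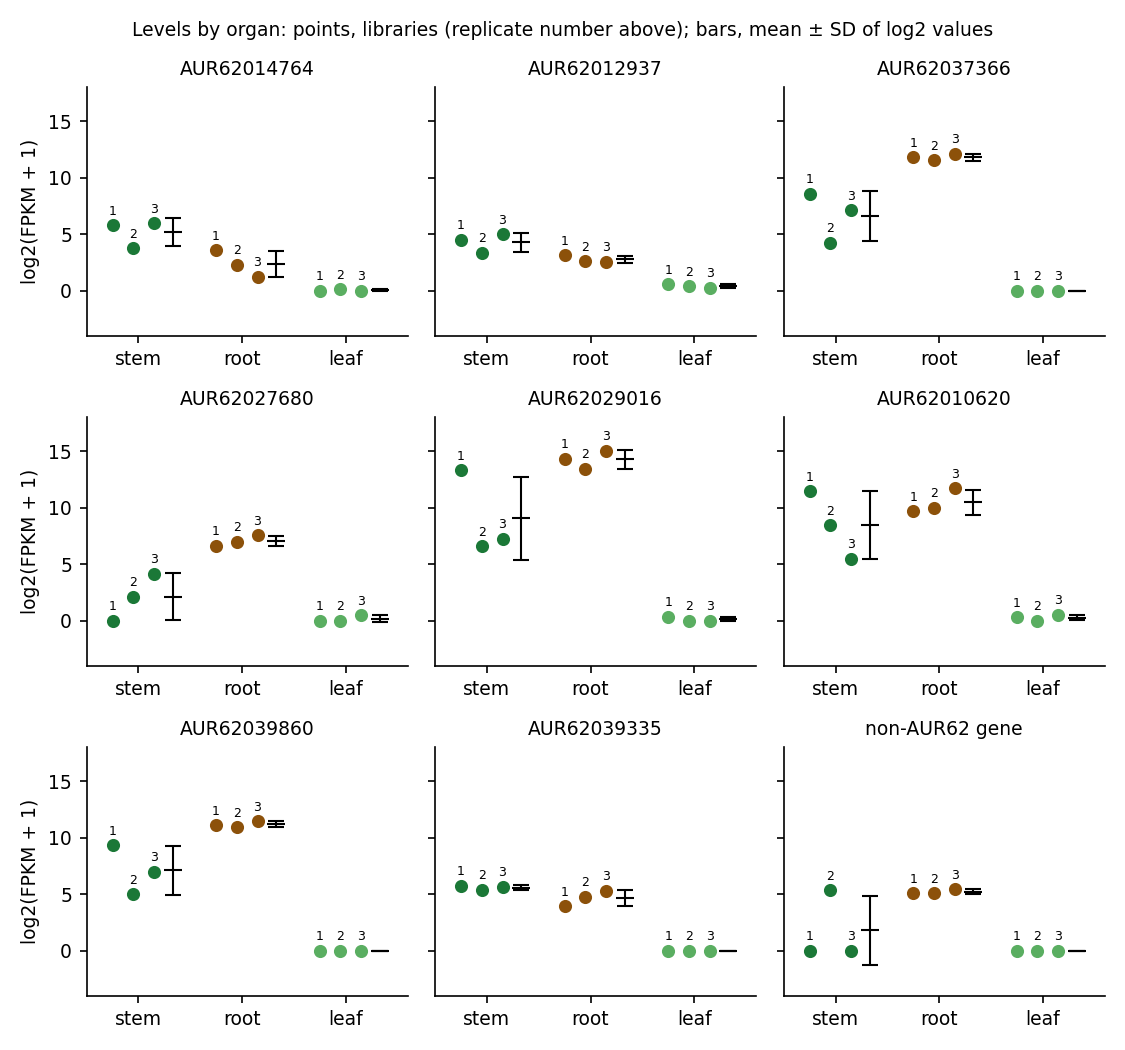
Levels of 9 of the genes in stem, root and leaf, as log2(FPKM + 1), with a point per library (replicate number above it) and the mean ± SD of the 3 log2 values beside each group. AUR62014764 and AUR62012937 are higher in stem than in root, AUR62037366 and AUR62027680 lower, and AUR62029016 and the non-AUR62 gene carried by stem replicate 2 alone show 1 stem library far from the others. The 3 stem libraries of AUR62010620 are spread apart from each other.

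The most abundant gene of all and 2 others of high level were not called. AUR62029016 had the highest mean in both organs, with 10251, 96.2 and 153 FPKM in stem replicates 1 to 3, against 21018, 11164 and 34460 FPKM in root replicates 1 to 3. Its stem values were below all root values, but those of the stem libraries differed over 100-fold, and the log2 fold change of -2.66 (SE 1.54) did not pass (adjusted p = 0.243, edgeR). Without stem replicate 1 it was -7.45 and passed (adjusted p = 0.000577). It also passed when log2(FPKM + 1) was tested by limma, at -5.23 (adjusted p = 0.0382), and with 0.1 in place of 1 (0.0441). It did not pass with DESeq2 (adjusted p = 0.238). Nor did it pass in edgeR with the replicate number as a block (0.0671), with stem and root alone (0.324), or with any other single library left out. A single leaf count, in replicate 1, was recorded for it.

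AUR62010620 had 2798, 355 and 43.9 FPKM in stem, against 817, 1029 and 3384 FPKM in root. The libraries of both organs overlapped (log2 fold change -0.71, SE 1.23, adjusted p = 0.711, edgeR), and without root replicate 3 the fitted direction turned, at 0.23 (adjusted p = 0.927). AUR62039860 had 644, 30.7 and 125 FPKM in stem, against 2237, 1973 and 2832 FPKM in root, with 0 counts in leaf. Its stem libraries all lay below its root libraries (log2 fold change -3.13, SE 1.06, adjusted p = 0.0816, edgeR), and it passed without stem replicate 1, at -4.88 (adjusted p = 0.00789), and with DESeq2, at -3.12 (adjusted p = 0.00408). AUR62039860 also passed by limma on log2(FPKM + 1) (adjusted p = 0.0120) and log2(FPKM + 0.1) (0.0123). With any other single library left out it did not pass (adjusted p from 0.0826 to 0.168, edgeR). In all 3 of these genes stem replicate 1 was at least 5-fold above the next stem library.

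Leaving out stem replicate 1 changed which genes were called. Without it, 60 of the 160 genes (37.5%) were lower in stem and 2 (1.25%) higher, against 12.0% and 14.4% of all 37821 genes then tested (edgeR). Of the 15 genes called with all libraries, 13 were called the same way without it. The fitted direction turned from higher in stem to lower for 51 genes. Genes that met the stem limit through replicate 1 had to be lower in the other stem libraries, so this share follows in part from the rule: of the 60, 40 were among the 73 genes whose stem mean was under 5 FPKM without replicate 1, and 20 were among the other 87.

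**Figure D4:**
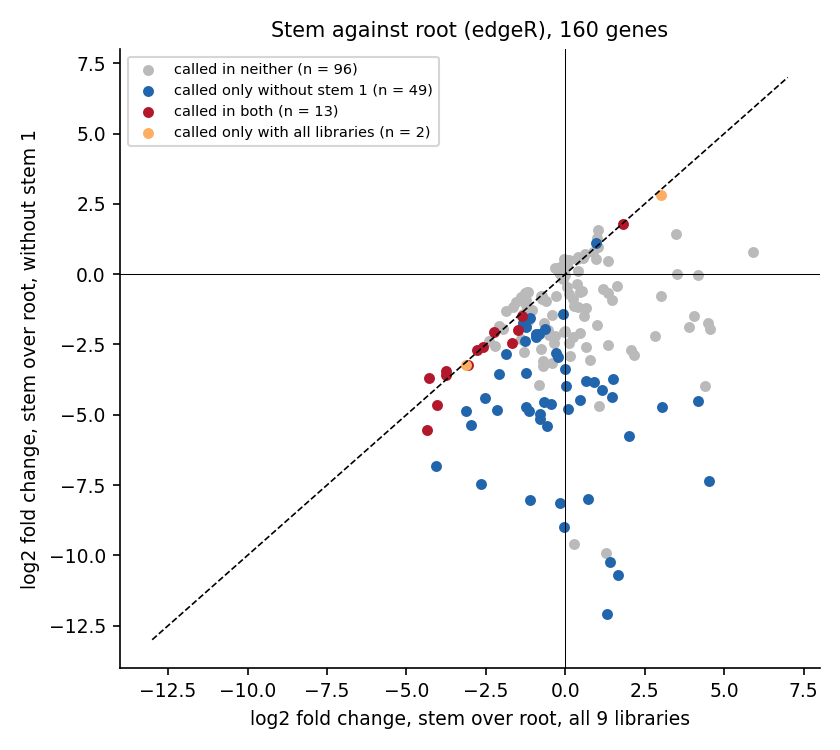
Log2 fold change of stem over root for the 160 genes in the edgeR fit of all 9 libraries (x axis) and in the fit without stem replicate 1 (y axis), with the dashed line at equality. The 13 genes called in both fits lie near the line, while 49 genes called only without stem replicate 1 lie mostly well below it; the lowest values belong to genes with few or no counts in stem replicates 2 and 3 and depend on the prior count.

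Consecutive identifiers were found among 19 of the 140 AUR62 genes of the group (13.6%), in 8 pairs and 1 run of 3. Among genes of stem and leaf under 0.5 FPKM in root, chosen by the same limits, this was so for 26 of 339 (7.67%). Counting identifiers within 5 numbers of another in the same set, the shares were alike, at 16.4% of the 140 and 17.1% of the 339. No source states whether consecutive numbers mean neighbouring positions in the genome, and near-identical copies could have shared reads. In 7 of the 9 runs all genes had their highest stem value in the same library, which was replicate 1 in 5 of them. Replicate 1 was the highest stem library for 72.5% of all 160 genes, so unrelated genes would often share it. Whether genes of a run went together more than other genes was not tested. The runs described here were chosen after their values were seen. The run of 3 was AUR62031082, AUR62031083 and AUR62031084. AUR62031082 had 399, 0.663 and 0 FPKM in stem, against 7.37, 10.1 and 4.90 FPKM in root. AUR62031083 had 691, 1.40 and 0 FPKM in stem, against 13.3, 14.8 and 5.06 FPKM in root. AUR62031084 had 59.7, 0.0841 and 0 FPKM in stem, against 24.8, 29.3 and 8.22 FPKM in root. All 3 had 99.8% to 99.9% of their stem FPKM in replicate 1, their lowest root value in replicate 3, and 0 counts in leaf.

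A further pair, AUR62014875 and AUR62014876, had the same order of libraries. AUR62014875 had 272, 0.0504 and 0 FPKM in stem, against 40.1, 48.7 and 15.3 FPKM in root. AUR62014876 had 356, 0.520 and 0.0632 FPKM in stem, against 92.0, 105 and 22.3 FPKM in root. The pair AUR62005974 and AUR62005975 had another order, with the highest stem value in replicate 3 and the lowest in replicate 2 for both. AUR62005974 had 7.47, 0.853 and 14.2 FPKM in stem, against 29.9, 31.3 and 58.4 FPKM in root.

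The genes were shorter than most. The gene length used for FPKM, recovered as a whole number of bases from count and FPKM, had a median of 938 bp with quartiles at 623 and 1352 bp. The 16502 other genes with means of at least 5 FPKM in stem and root had a median of 1365 bp. In a short gene 0.5 FPKM is fewer counts, and whether length had a part in which genes passed the leaf limit was not tested. Non-AUR62 genes were 12.5% of the 160 and 6.94% of those 16502.

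The same limits with the organs exchanged gave sets of other sizes. Stem and leaf with under 0.5 FPKM in every root library were met by 385 genes, and root and leaf with under 0.5 FPKM in every stem library by 5. Median gene length was 938 bp in the 160 and 1101 bp in the 385, and 12.5% of the 160 and 11.9% of the 385 were non-AUR62 genes. The highest stem value was in replicate 1 for 72.5% of the 160 genes and 20.8% of the 385, and in replicate 3 for 18.1% of the 160 and 62.3% of the 385. Stem replicate 1 held at least 90% of the stem sum for 31.9% of the 160, against 2.34% of the 385. Without stem replicate 1, 87 of the 160 (54.4%) still met their limits, against 352 of the 385 (91.4%). Leaving out stem replicate 3, most often the highest in the 385, was not run for that set. These shares therefore concern replicate 1 alone. The median stem CV was 1.27 for the 160 genes and 0.579 for the 385. The sets share the stem libraries, and their difference was not tested.

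**Figure D5:**
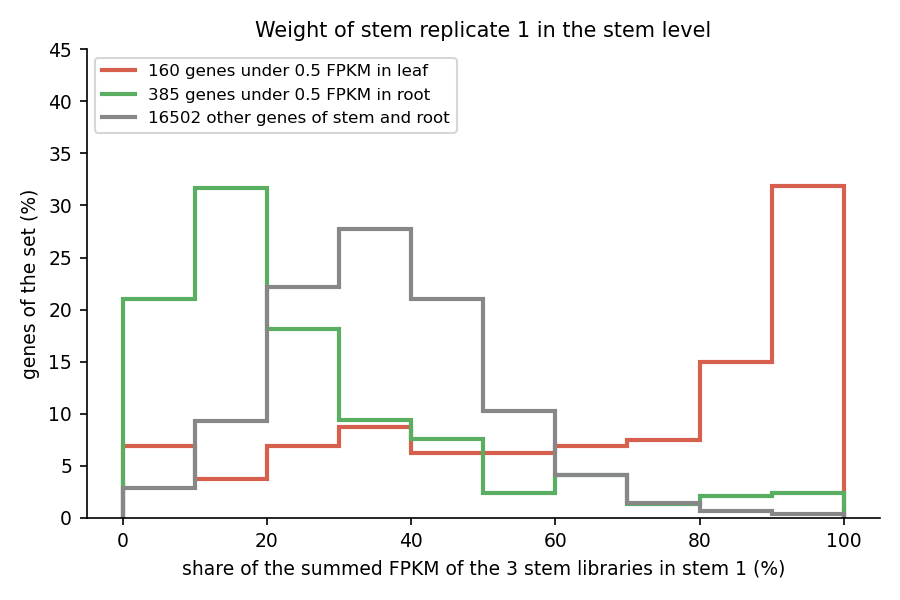
Share of the summed FPKM of the 3 stem libraries that lay in stem replicate 1 (x axis, in bins of 10%), as the percentage of genes in each set (y axis). The 160 genes under 0.5 FPKM in leaf peak in the last bin (31.9%), the 385 genes under 0.5 FPKM in root between 10% and 20% (31.7%), and the 16502 other genes of stem and root between 30% and 40% (27.7%).

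Root levels differed less between libraries than stem levels, both in these genes and in other genes. The median CV was 1.27 in stem and 0.392 in root for the 160, against 0.284 and 0.122 for the 16502 other genes of stem and root. The stem CV was above the root CV for 146 of the 160 genes. All 3 root libraries reached 5 FPKM for 124 genes. Root replicate 3 was the highest root library for 101 genes (63.1%), replicate 1 for 37 and replicate 2 for 22, while replicate 3 was highest for 47.0% of the 16502 other genes of stem and root. AUR62026803, chosen after its values were seen, had 487, 14.5 and 1.53 FPKM in stem replicates 1 to 3, against 195, 79.2 and 599 FPKM in root replicates 1 to 3. It was high in stem replicate 1 and in root replicate 3. These are different pools of plants only if replicate numbers stand for pools, which was assumed here. Over all 160 genes, the root means ran from 5.16 to 22214 FPKM with a median of 18.7, and 18 of them were at least 100 FPKM, as were 22 of the stem means.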

How the data were processed

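The deposited tables hold raw counts per gene and FPKM values, per the file headers. The submitters' processing notes name TopHat2 2.0.12 and Bowtie2 2.0.6, and no label or header gives the counter, build or annotation. Gene lengths from count over FPKM were whole within 0.01 bp, and the size behind FPKM was 0.773 to 1.21 times the total count. The 160 genes and all lists were chosen with earlier results of these data known, and the leaf contrasts were not tested.

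Stem was tested against root with edgeR 4.0.16 (R 4.3.3) on counts: filterByExpr, TMM factors, robust quasi-likelihood fit of organ over 9 libraries. The SE is the log2 fold change over the root of F. Folds of genes at 0 in a group depend on the prior count. The procedure was tested on simulated counts drawn around the same mean in all libraries of an organ. That test does not show how calls behave for genes with a deviant stem library. By rule, the text names the 2 genes called per direction with the largest fold and 1 direction in all 3 pairs, the highest in stem and in root, and the 3 highest not called. Alternatives were DESeq2 1.42.0, limma 3.58.1 on log2 of FPKM plus 1 or 0.1, other factors and filters, a replicate block, stem and root alone, and each library left out. The protocols state that pools gave all 3 organs, so replicate numbers were taken as pairs, though deviations of same-numbered libraries correlated at only -0.146 to 0.0907. Lists and cell markers fixed as product descriptions could not be applied.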

Additional observations from a re-analysis of the deposited data

How the results depend on the processing

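The number of genes that met the limits was 160, against 71 with a leaf limit of 0.1 FPKM, 86 with means of at least 10 FPKM and 33 with at least 5 FPKM in each stem and root library; it ran from 101 (without stem replicate 1) to 199 over fits that each left out a library. With CPM in place of FPKM 157 genes passed, of which 109 were among the 160. The 13 genes lower in stem were 26 with DESeq2, 30 with limma on log2(FPKM + 1) and 22 on log2(FPKM + 0.1), and 5 (without root replicate 2) to 60 (without stem replicate 1) with a library left out, with 7 and 6 without root replicates 1 and 3. The 2 genes higher in stem were 1 with the replicate block and 1 with stem and root alone, and 0 (without root replicate 2 or 3) to 6 (without stem replicate 3) with a library left out; without each leaf replicate there was 1. The cause was not tested. Fits without a library have fewer samples, and among them the counts both fell and rose. The block changed no other count by over 1.5 times and no call of a named gene but that of AUR62014764. The median stem minus root difference kept its sign in every alternative run, from -1.87 without stem replicate 1 to -0.30 without stem replicate 3. All these alternatives averaged log2 values, and the median edgeR log2 fold change with all libraries was smaller, at -0.165. Stem replicate 1 was highest for 116 genes under every scaling. Of 126 combinations of named gene and alternative, 97 kept direction and call, 21 lost the call, 7 gained it and 1 turned, AUR62010620, at -3.10 without stem replicate 1 and 0.23 without root replicate 3, the ends of its range. Over all genes tested, 2361 to 5460 were higher and 1212 to 4546 lower in stem with a library left out, against 4610 and 3400.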
